A study of Homo sapiens with 6 samples.

Results

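A set of 10 genes that shape how strongly a cell answers the death ligand TRAIL was followed through AGO2-RIP-seq of MDA-MB-231 cells, which are a triple-negative breast cancer cell line. The members were the listed regulators of the TRAIL pathway that lie outside the 7 genes of TRAIL receptor signalling named in the study. They were TNFSF10, TNFRSF10C, TNFRSF10D, TNFRSF11B, CFLAR, RIPK1, TRADD, XIAP, BIRC2 and BIRC3, which are 10 of the 60708 genes in each count table. Cells had been transfected with 25 nM of either a miR-99b-5p mimic, a synthetic RNA that raises the level of this microRNA, or a scrambled control, and were harvested 18 h later. RNA bound to AGO2, the protein that carries microRNAs to their target transcripts, was pulled down with an antibody (AGO2-IP), while the flow-through holds RNA that the antibody did not retain. There were 2 mimic AGO2-IP libraries, 2 mimic flow-through libraries, 1 control AGO2-IP library and 1 control flow-through library, all from the same unmodified cell line after a transient transfection. The mimic comparison between fractions has replicates, and every comparison that uses a control library has none on the control side. The sample labels give the control libraries different fractions, whereas the study's supplement lists them as a pair of control replicates and its methods describe replicates of AGO2-IP from control cells. The labels were followed, so each value that uses a control library holds only if its labelled fraction is right.

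TRAIL, the product of TNFSF10, binds death receptors on the cell surface, and the bound receptors assemble FADD and caspase-8 into a complex that starts apoptosis. Decoy and soluble receptors bind TRAIL without passing on a full death signal, CFLAR (c-FLIP) takes caspase-8's place in the complex, and RIPK1 and TRADD tie the same receptors to survival signalling through NF-kappaB. The inhibitors of apoptosis act downstream: XIAP blocks active caspases, and BIRC2 (cIAP1) and BIRC3 (cIAP2) attach ubiquitin to RIPK1.

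The mature miR-99b-5p, encoded at chr19:51692618-51692639 on the plus strand (RefSeq, GRCh38.p14), is printed because AGO2 finds its targets mainly through the seed, bases 2 to 8, shown in capitals.
miR-99b-5p: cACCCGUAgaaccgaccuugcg
Transcripts were searched on their own strand for ACGGGT, which pairs with seed bases 2 to 7 and lies within every longer match to the seed, such as the 8-base TACGGGTA. None of the 10 genes held ACGGGT in its canonical transcript, in the 3′ UTR of that transcript or in any other annotated transcript, from 1 transcript for TNFRSF10D to 24 for CFLAR. Over all protein-coding genes, 2986 of 20046 canonical transcripts (14.9%) and 1130 of 19936 3′ UTRs (5.67%) held it. Among transcripts within 25% of the member's length, the share with a match ran from 6.94% for TNFRSF10C to 37.6% for CFLAR, whose canonical transcript of 14612 bases was the longest of the 10. The same search found 1 match in the canonical transcript of MTOR, in its 3′ UTR, and none in those of TNFRSF10B and BAK1. The study names TNFRSF10B and BAK1 as targets, and it reports luciferase evidence of binding to the 3′ UTR of TNFRSF10B. A missing match thus does not set the 10 genes apart from these targets. The result says only that these letters are missing from the annotated transcripts, and it covers neither matches with a mismatch nor pairing outside the seed.

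The deposited values were counts of read pairs assigned to 1 gene. Counts on genes ran from 7772149 to 8076375 in the control libraries and from 38022779 to 48544756 in the mimic libraries. The share of mitochondrially encoded genes was 43.4% for the control flow-through, 3.48% for the control AGO2-IP and 0.125% or less for the mimic libraries, so levels are given as CPM, a count scaled to the library's total over nuclear genes. Read pairs that mapped to several places made up 73.7% and 76.7% of the control libraries and 2.38% to 19.2% of the mimic libraries. These properties and the treatment cannot be told apart with 1 control library per fraction. Markers of the mesenchymal line were present in every library, with VIM at 198 to 595 CPM and AXL at 521 to 2827 CPM. ESR1 and PGR were at 1.03 CPM or less and the leukocyte gene PTPRC at 2.73 CPM or less. The epithelial gene CDH1 reached 4.10 CPM and the endothelial gene PECAM1 8.48 CPM, while GATA3, a luminal gene expected to be low, was found at 8.26 to 43.9 CPM.

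Of the 10 genes, 5 fell below 200 counts in at least 1 library. TNFRSF10C stayed below 200 counts in all 6 libraries, with 60 counts in total. TNFRSF11B was below in 4 libraries, namely both control libraries, mimic flow-through replicate 2 and mimic AGO2-IP replicate 1. For TNFRSF10D, RIPK1 and TRADD the control flow-through alone was below, at 124, 188 and 92 counts. TNFSF10, CFLAR, XIAP, BIRC2 and BIRC3 had at least 200 counts in every library. As CPM per kilobase of merged exons, the scale that allows genes to be compared, the median over the 6 libraries was highest for BIRC2 at 40.4 (range 12.9 to 71.4). BIRC2 was the highest in 5 of the 6 libraries, and in mimic flow-through replicate 2 TRADD (28.1) was above BIRC2 (12.9). TRADD, XIAP and BIRC3 followed at 12.8, 12.5 and 11.7, and their ranges of 6.03 to 29.8, 10.3 to 21.9 and 1.30 to 16.7 overlapped. TNFRSF10D at 7.09, TNFSF10 at 6.42 and RIPK1 at 5.43 also overlapped one another, and so did CFLAR at 3.11 and TNFRSF11B at 2.13. TNFRSF10C was lowest at 0.204 (0.0341 to 1.08).

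**Figure D1:**
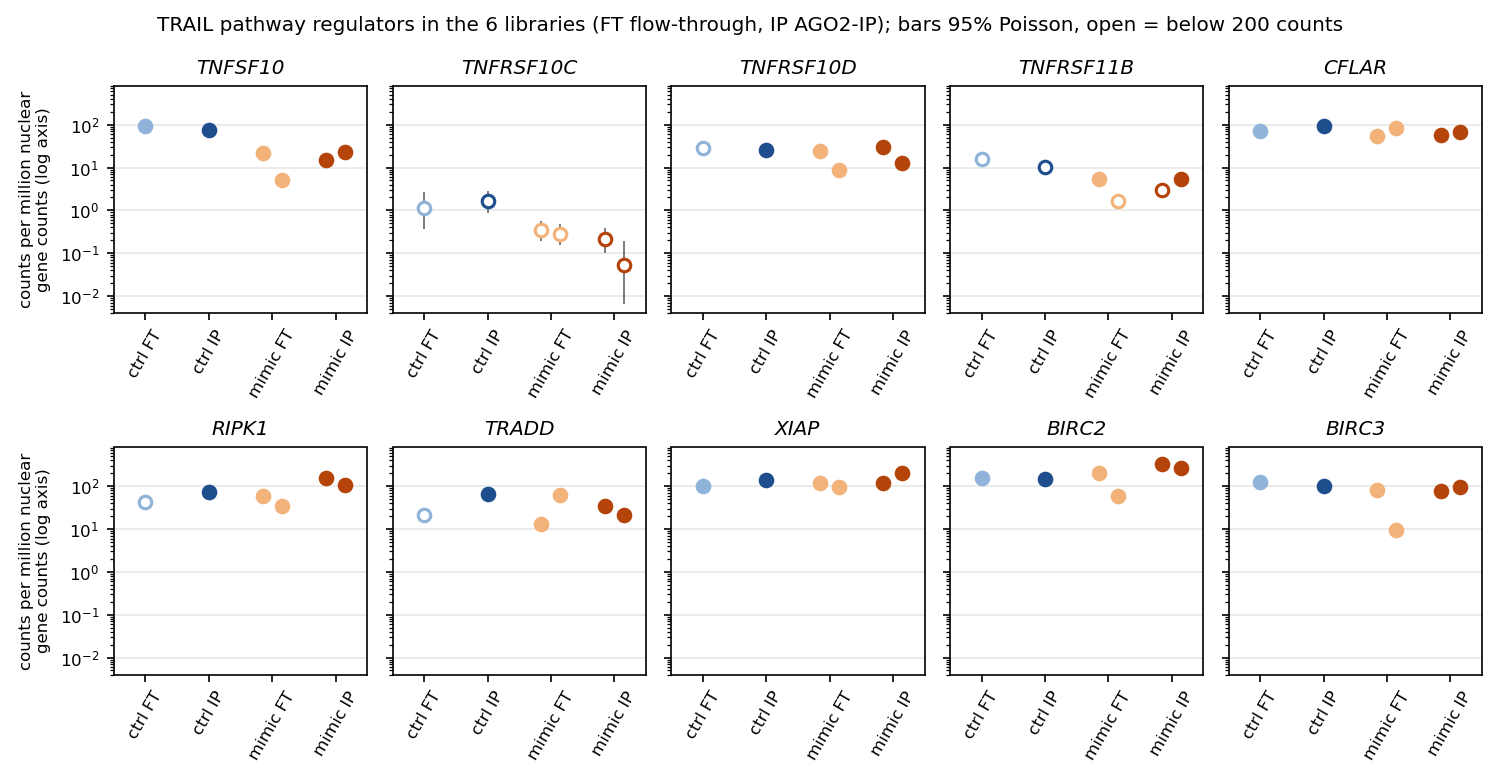
Level of each gene in every library, as CPM over nuclear gene counts on a log axis, for the control flow-through, control AGO2-IP, mimic flow-through and mimic AGO2-IP libraries. Each point is 1 library, bars are 95% Poisson intervals, and open points mark fewer than 200 counts. TNFSF10, TNFRSF11B, BIRC3 and TNFRSF10C sit lower in all 4 mimic libraries than in either control library, TNFRSF10C on fewer than 200 counts throughout. How many of all genes do so was not counted. This scale leaves out mitochondrial genes, and on it the median log2 mimic-to-control ratio of all genes was -0.16 (AGO2-IP) and -0.30 (flow-through). With TMM (trimmed mean of M-values) scaling, BIRC3 in mimic AGO2-IP replicate 2 was above the control AGO2-IP (log2 ratio 0.12). The 2 mimic flow-through points of BIRC3, at 80.6 and 9.70, lie far apart.

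The ligand gene TNFSF10 (ENSG00000121858.11, chr3:172505508-172523475, minus strand, GRCh38) was lower in the mimic libraries than in the control libraries in both fractions. Its level was 91.4 CPM for control flow-through and 73.9 CPM for control AGO2-IP. In mimic replicates 1 and 2 it was 21.6 and 5.01 CPM in the flow-through and 15.1 and 22.6 CPM in the AGO2-IP. In these bulk libraries fewer expressing cells and less TNFSF10 RNA per cell cannot be told apart. The control libraries also differed from the mimic libraries in depth and in mitochondrial share (43.4% and 3.48% against 0.125% or less). With 1 control library per fraction these differences and the treatment cannot be told apart either. No mimic library reached a control library, although the raw count of 1014 in mimic flow-through replicate 1 was the highest of the 6, in a library of 46940411 nuclear gene counts against 4396717 in the control flow-through. The log2 ratio of mimic to control, after TMM (trimmed mean of M-values) scaling of the libraries compared, for the flow-through was -2.78 (-1.99 and -3.57 for the single mimic libraries), and 0.571% of the 12254 genes compared had a ratio as low. For the AGO2-IP fraction it was -1.81 (-2.13 and -1.50), and 5.78% of 11467 genes were as low. Under the other scalings, strands, left-out libraries and with a GC trend removed TNFSF10 stayed below -1 in both fractions, between -3.66 and -2.15 in the flow-through and between -2.52 and -1.52 in the AGO2-IP.

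Between fractions of the mimic cells TNFSF10 gave no call. Its log2 fold change, AGO2-IP over flow-through, was 0.61 ± 0.743 (SE, 2 libraries per fraction), and the differences between single libraries ran from -0.33 to 1.91. Both AGO2-IP values lay between or just above the flow-through values, so the fractions overlapped.

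Of the receptors that bind TRAIL without a full death signal, TNFRSF10D (decoy receptor 2, ENSG00000173530.6, chr8:23135588-23164027, minus strand) was the most abundant per length. It read 28.2 CPM for control flow-through, 26.0 for control AGO2-IP, 24.1 and 8.67 for mimic flow-through and 29.6 and 12.6 in the mimic AGO2-IP. Replicate 2 was the lower mimic library in each fraction, and replicate 1 lay close to the controls. The log2 ratio of mimic to control was -0.24 (0.34 and -0.83) for AGO2-IP and -0.61 for flow-through (-0.14 and -1.09), so in the AGO2-IP its sign depended on the replicate. Between the mimic fractions the log2 fold change of TNFRSF10D was 0.42 ± 0.711 (SE), from -0.28 to 0.99 over the alternative settings.

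TNFRSF11B (osteoprotegerin, a secreted receptor that binds TRAIL as well as RANKL; ENSG00000164761.9, chr8:118923557-118951885, minus strand) resembled TNFSF10 in its levels. It read 15.5 and 10.3 CPM in the control flow-through and AGO2-IP, 5.37 and 1.65 for mimic flow-through and 3.0 and 5.32 in the mimic AGO2-IP. All 4 mimic libraries were below both control libraries, but the control values rest on 68 and 80 counts. The log2 ratio of mimic to control was -2.00 in the flow-through (-1.42 and -2.58) and -1.16 in the AGO2-IP (-1.60 and -0.73). Without mimic AGO2-IP replicate 1 the latter was -0.75, short of -1. Between the mimic fractions the log2 fold change of TNFRSF11B was 0.33 ± 0.813 (SE), from -0.42 to 1.06 over the alternative settings.

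TNFRSF10C (decoy receptor 1, ENSG00000173535.15, chr8:23102921-23117445, plus strand) had few counts: 5 for the control flow-through, 13 for the control AGO2-IP, 16 and 14 for the mimic flow-through and 10 and 2 for the mimic AGO2-IP. As CPM these are 1.14 (95% Poisson interval 0.369 to 2.65), 1.67 (0.888 to 2.85), 0.341 (0.195 to 0.554), 0.288 (0.158 to 0.484), 0.214 (0.103 to 0.393) and 0.0527 (0.00638 to 0.190). The interval of the control AGO2-IP lay above those of all 4 mimic libraries, and that of the control flow-through overlapped those of both mimic flow-through libraries; the intervals cover counting error only. The gene fell under the count minimum of every comparison, and 16.9% and 16.1% of its exonic bases are shared with ENSG00000284948 and ENSG00000284956 on the same strand, where pairs could not be assigned to 1 gene. With a minimum summed count of 10 its log2 fold change between the mimic fractions was -0.87 ± 1.16 (SE, edgeR adjusted p = 0.750).

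In the group of death-complex proteins, CFLAR (ENSG00000003402.20, chr2:201116154-201176687, plus strand) varied least. It read 72.1 and 92.1 CPM in the control flow-through and AGO2-IP, 53.5 and 84.8 for mimic flow-through and 58.7 and 67.9 in the mimic AGO2-IP, so the mimic fractions overlapped and the control AGO2-IP stood highest. Its ratio of mimic to control stayed within 1 on the log2 scale in each fraction and each replicate, at -0.36 for AGO2-IP (-0.49 and -0.23) and 0.25 for flow-through (-0.34 and 0.85). The flow-through sign thus differed between replicates, and the ratio was -0.50 without replicate 2 and -0.10 with mitochondrial genes left out of the library size. The log2 fold change between its mimic fractions was -0.24 ± 0.629 (SE), from -0.89 to 0.45 over the alternative settings. CFLAR shares exon bases with CFLAR-AS1 and IMPDH1P10 on the opposite strand and ENSG00000234431 on its own strand, and 14.6% to 21.2% of the pairs that counting by strand gave it were left out of the unstranded counts. The same share was 2.49% to 14.5% for RIPK1 and 4.26% to 24.6% for BIRC3, which also share exon bases with genes on the opposite strand. Both maxima were in mimic flow-through replicate 2, and the other libraries had at most 5.05% for RIPK1 and 7.89% for BIRC3. In the stranded counts the log2 fold change between the mimic fractions was 1.37 and 1.35 for RIPK1 (1.54 unstranded). For BIRC3 it was 0.95 and 0.97 (1.08 unstranded). The other members had a share of at most 1.13%. It misses pairs lost to genes on the same strand, which TNFRSF10C and CFLAR also overlap.

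RIPK1 (a kinase that joins death and survival signalling; ENSG00000137275.16, chr6:3063824-3115187, plus strand) was higher in both mimic AGO2-IP libraries than in any other library. It read 42.8 CPM for control flow-through, 73.5 for control AGO2-IP, 58.7 and 33.6 for mimic flow-through and 159 and 109 in the mimic AGO2-IP. The 4 differences between mimic AGO2-IP and flow-through libraries ran from 1.14 to 1.92 on the log2 scale, and the fitted log2 fold change was 1.54 ± 0.601 (SE). It had an unadjusted p of 0.0259 and an adjusted p of 0.159 (edgeR's quasi-likelihood test, Benjamini-Hochberg over 13078 genes), so it was not called, and 10.1% of genes had a fold change as high. In the control pair the log2 ratio of AGO2-IP to flow-through was 0.66. The ratio of mimic to control was 1.03 (1.27 and 0.78) for AGO2-IP and 0.41 for flow-through (0.55 and 0.27). On this TMM scale RIPK1 was the 1 gene of the 9 compared that lay above the control in all 4 mimic libraries. The share of all genes that did so was not counted. By CPM over nuclear genes mimic flow-through replicate 2 (33.6) was below the control flow-through (42.8). With mitochondrial genes left out of the library size the flow-through ratio was 0.06. The AGO2-IP ratio was under 1 with library size alone (0.89), with mitochondrial genes left out of the library size (0.84), in either strand's counts (0.98 and 0.92) and without mimic AGO2-IP replicate 1 (0.76).

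TRADD (an adaptor that recruits RIPK1; ENSG00000102871.16, chr16:67154185-67159909, minus strand) was set apart by the gap between the mimic flow-through libraries, which read 13.1 CPM in replicate 1 and 61.1 CPM in replicate 2. The mimic AGO2-IP libraries lay between them at 34.8 and 21.1 CPM. The log2 fold change between the mimic fractions was -0.63 ± 0.822 (SE), it was -1.42 without flow-through replicate 1 and 1.29 without flow-through replicate 2, and single-library differences ran from -1.79 to 1.58. In the control cells TRADD read 20.9 CPM in the flow-through and 64.7 CPM in the AGO2-IP, a log2 ratio of 1.49, and 6.91% of the 8245 genes compared had a ratio as high. In the AGO2-IP it was lower in the mimic libraries than in the control, at -1.07 (-0.74 and -1.40); with the dependence on transcript GC content taken out of each library (GC trend removed) this value was -0.13, with TMM over all 6 libraries -0.99 and without mimic AGO2-IP replicate 2 -0.77.

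XIAP (ENSG00000101966.13, chrX:123859712-123913972, plus strand) differed little among the libraries. It read 103 and 142 CPM in the control flow-through and AGO2-IP, 118 and 98.1 for mimic flow-through and 120 and 208 in the mimic AGO2-IP. Mimic AGO2-IP replicate 2 stood highest, and replicate 1 was level with the flow-through. The log2 fold change between the mimic fractions was 0.57 ± 0.604 (SE) and -0.46 with the GC trend removed, and the ratios of mimic to control were 0.34 (-0.08 and 0.77) for AGO2-IP and 0.42 for flow-through (0.30 and 0.55). With the GC trend removed the AGO2-IP ratio of XIAP turned to -0.44, and without mimic AGO2-IP replicate 2 to -0.11. Its flow-through ratio ran from 0.07, with mitochondrial genes left out of the library size, to 0.89, with library size alone. Without mimic flow-through replicate 2 it was 0.14. By CPM over nuclear genes that library (98.1) was below the control flow-through (103).

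BIRC2 (ENSG00000110330.9, chr11:102347211-102378670) and BIRC3 (ENSG00000023445.16, chr11:102317484-102339403) are neighbours on the plus strand, 7807 bases apart. BIRC2 read 158 and 149 CPM in the control flow-through and AGO2-IP, 207 and 58.4 for mimic flow-through and 323 and 265 in the mimic AGO2-IP. BIRC3 read 125 and 101 CPM in the control flow-through and AGO2-IP, 80.6 and 9.70 for mimic flow-through and 77.6 and 94.7 in the mimic AGO2-IP. On the TMM scale of the fit both mimic AGO2-IP libraries were above both mimic flow-through libraries for each gene, by 0.59 to 2.15 for BIRC2 and 0.13 to 3.03 for BIRC3 (log2), with flow-through replicate 2 the low library in both. BIRC3 in flow-through replicate 1 (80.6 CPM) was above mimic AGO2-IP replicate 1 (77.6 CPM) when scaled to nuclear counts alone.

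The fitted log2 fold change was 1.23 ± 0.643 (SE) for BIRC2 and 1.08 ± 0.783 (SE) for BIRC3, with edgeR adjusted p-values of 0.264 and 0.410. In the control pair the log2 ratio was -0.20 for BIRC2 and -0.43 for BIRC3, but both were above 0 with library size alone (0.69 and 0.46) and with the GC trend removed (0.22 and 0.23), and BIRC2 also with TMM over all 6 libraries (0.01). The ratio of mimic to control in the AGO2-IP was 1.15 for BIRC2 (1.27 and 1.04) and -0.05 for BIRC3 (-0.22 and 0.12). With the GC trend removed these values were 0.27 and -1.02, and with mitochondrial genes left out of the library size that of BIRC2 was 0.97. In the flow-through it was -0.17 for BIRC2 (0.48 and -0.82) and -1.80 for BIRC3 (-0.54 and -3.07), and without replicate 2 the BIRC3 value was -0.70.

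**Figure D2:**
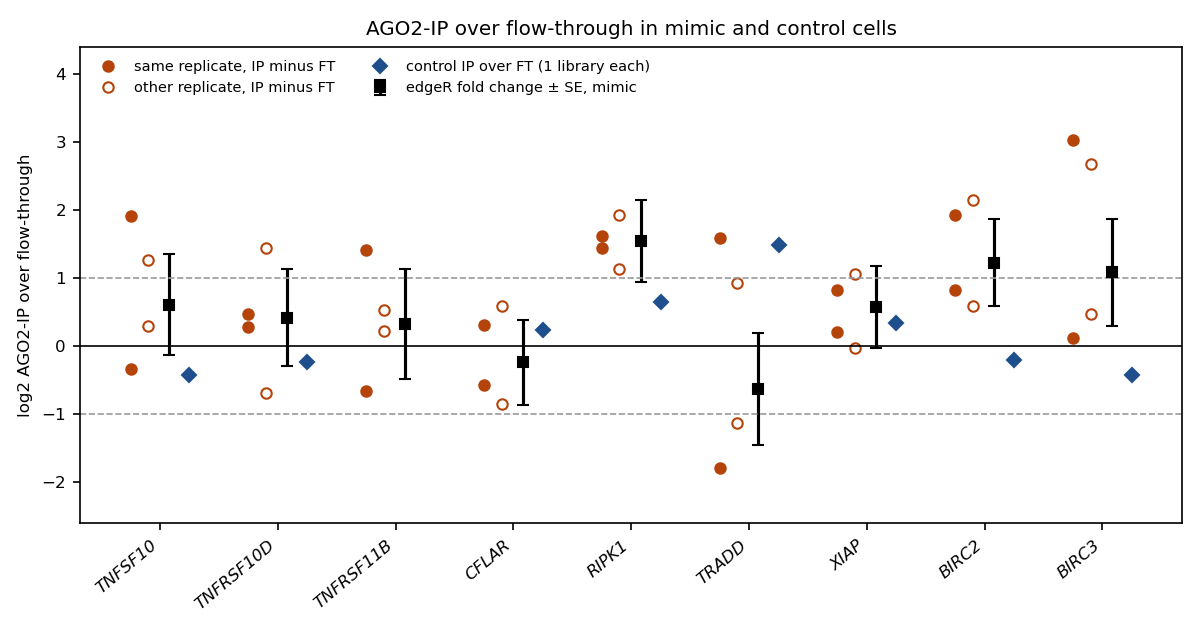
Log2 AGO2-IP over flow-through for the 9 genes with enough counts: filled circles are the differences within mimic replicate 1 or 2, open circles those across replicates, squares the edgeR log2 fold change with its SE, and diamonds the control pair, 1 library each; dashed lines mark -1 and 1. The 4 circles of RIPK1 lie between 1.14 and 1.92, those of BIRC3 between 0.13 and 3.03, and those of TRADD fall on both sides of 0.

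Whether these transcripts were enriched on AGO2 in mimic cells was tested over the 9 genes whose counts in the 4 mimic libraries summed to 200 or more. None was called (log2 fold change past 1 in either direction, adjusted p no higher than 0.05) by edgeR, where the background was 0.245% of 13078 genes called higher and 0.413% called lower. PyDESeq2 also called none of the 9, against 6.46% of genes called higher and 8.24% called lower. At an unadjusted p under 0.05 edgeR gave 1 of the 9, RIPK1, and 3107 of all genes (23.8%), and PyDESeq2 gave RIPK1 an adjusted p of 0.0651. Of the 9 fold changes 7 were above 0 and 2 below, with a median of 0.57 against -0.11 over all genes. In RIPK1, BIRC2 and BIRC3 both AGO2-IP libraries lay above both flow-through libraries, which 28.1% of all genes also did, and no member lay wholly below, as 28.5% of genes did.

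Calls depended on mimic flow-through replicate 1. Without it RIPK1 (1.71, edgeR adjusted p = 0.0256), BIRC2 (2.04, adjusted p = 0.0125) and BIRC3 (2.87, adjusted p = 0.00414) were called higher and TRADD (-1.42, adjusted p = 0.0412) lower, in a fit that also called 2458 genes higher and 2416 lower and that assumes the lone flow-through library to vary like the AGO2-IP pair. With the replicate number as a block, which pairs the fractions, edgeR called 601 genes higher and 664 lower and none of the 9, and RIPK1 had a log2 fold change of 1.53 (adjusted p = 0.154). With the replicate block and the GC trend removed RIPK1 was called (1.47, edgeR adjusted p = 0.00805), among 1835 genes called higher and 1658 lower.

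The members' spread between the mimic flow-through libraries went with GC content. The 2 libraries differed by 1 or more on the log2 scale in 6 of the 9 genes (4 lower and 2 higher in replicate 2), as they did in 49.9% of all genes, while the AGO2-IP libraries differed so in 1 of the 9, TNFRSF10D, and in 16.9% of all genes. The differences, replicate 2 minus 1, ran from -2.55 for BIRC3, whose transcript is 35.8% GC, to 2.71 for TRADD, at 64.7% GC. CFLAR (1.16 at 44.1% GC) and XIAP (0.23 at 38.9%) lay above genes of similar GC content among the members. Spearman's rho of the difference with GC was 0.683 over the 9 genes, which share the same pair of libraries, and 0.755 over 11747 protein-coding genes. Removing each library's GC trend left RIPK1 at 1.48 (edgeR adjusted p = 0.0677), lowered BIRC2 to 0.48, BIRC3 to 0.61 and TNFSF10 to 0.03, and turned TRADD to 1.11; the part of GC content in the differences was otherwise not tested.

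**Figure D3:**
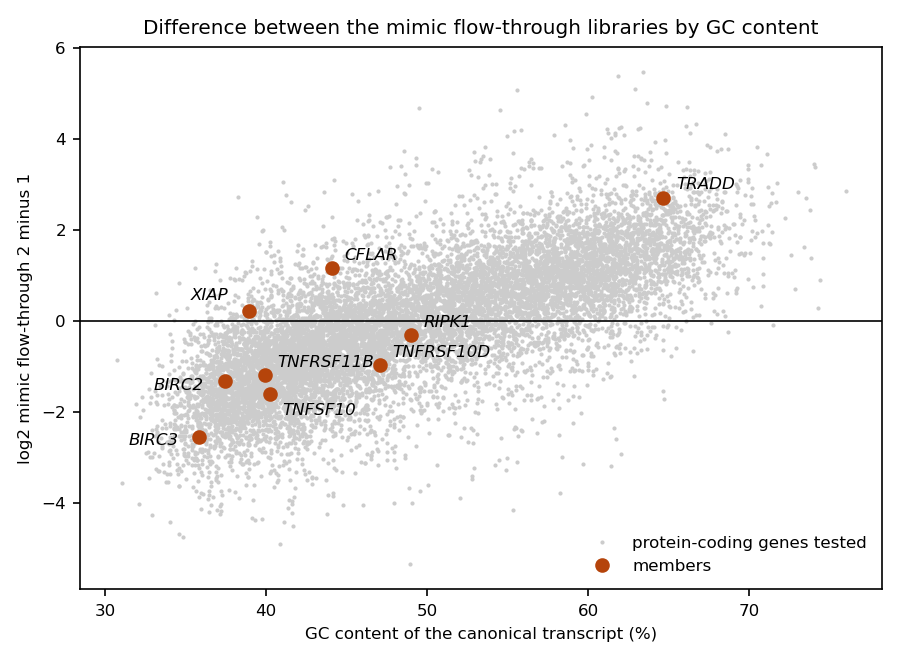
Log2 difference of mimic flow-through replicate 2 minus replicate 1 against the GC content of the canonical transcript, for the protein-coding genes tested (grey) and the 9 members (orange). BIRC3, the lowest in GC content, sits at -2.55 and TRADD, the highest, at 2.71.

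The control cells gave a background for the fractions, from 1 library each and with no test. Of 8 genes whose counts in the pair summed to 200 or more, TRADD alone had a log2 ratio of 1 or more, where 15.9% of all genes did, and none had -1 or less, where 18.1% did. The members' median was 0.01, and so was that of all 8245 genes. Scaling by library size alone moved the median of all genes by 0.89 and put all 8 members above 0, from 0.46 for TNFSF10 and BIRC3 to 2.37 for TRADD. CFLAR (1.12), RIPK1 (1.54) and XIAP (1.23) then passed 1 beside TRADD, where 46.1% of all genes did and 5.06% had -1 or less, so the count and the signs of TNFSF10, TNFRSF10D, BIRC2 and BIRC3 in this pair rested on the scaling.

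Mimic and control were compared within each fraction, with 2 mimic libraries against the same single control library and so with no test. In the AGO2-IP, RIPK1 and BIRC2 had a log2 ratio of 1 or more, where 17.3% of genes did, and TNFSF10, TNFRSF11B and TRADD a ratio of at most -1, against 17.4%. The median over the 9 genes was -0.24, and 0.02 over all genes. In the flow-through no member had a ratio of at least 1, against 10% of genes, and TNFSF10, TNFRSF11B and BIRC3 had a ratio of at most -1, against 10.2%; the median was -0.17, and 0.05 over all genes. With library size alone TRADD passed 1 there (1.25), and the shares of all genes were 26% and 4.16%, while with mitochondrial genes left out of the library size they were 4.4% and 18.8%. The reported flow-through ratio of TRADD was 0.79. It was 2.05 without mimic flow-through replicate 1 and -0.74 without replicate 2, so its sign depended on the replicate kept. On the TMM scale TNFSF10 and TNFRSF11B were below the control of their fraction in all 4 mimic libraries. The share of all genes that were so was not counted.

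**Figure D4:**
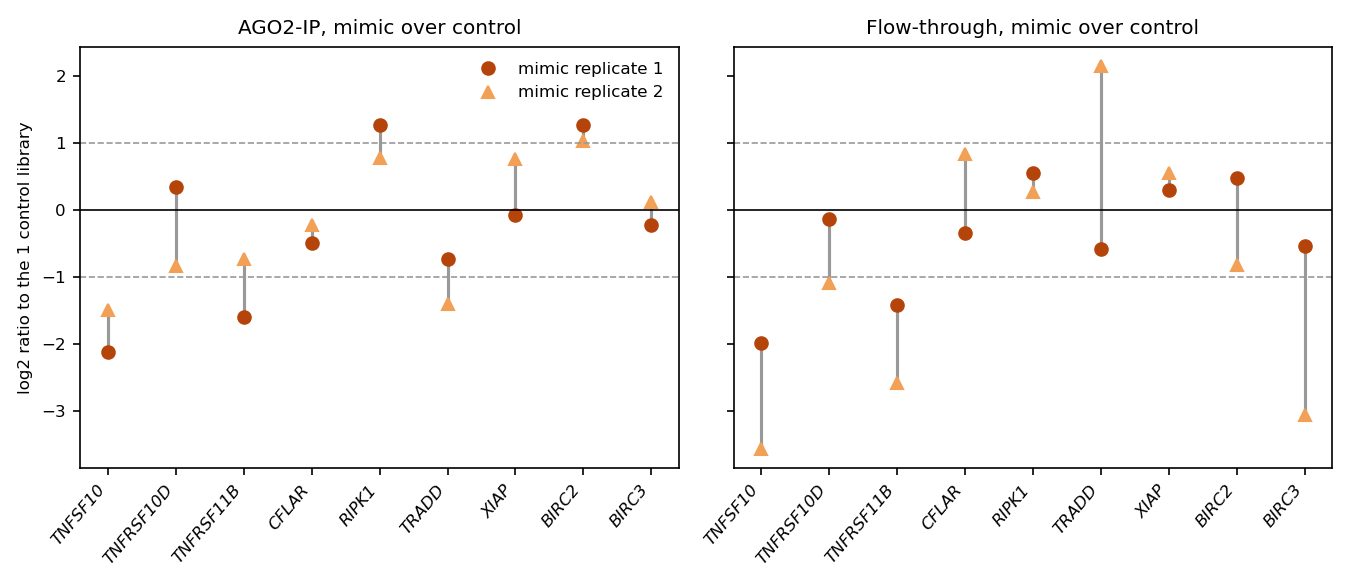
Log2 ratio of each mimic library to the 1 control library of its fraction, AGO2-IP on the left and flow-through on the right, with circles for mimic replicate 1, triangles for replicate 2 and dashed lines at -1 and 1. TNFSF10 lies below -1 in all 4 mimic libraries, and the flow-through replicates of TRADD and BIRC3 are -0.58 and 2.15, and -0.54 and -3.07.

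Other genes of the pathway were read against the same test between the mimic fractions, and edgeR called none of them. Of the 7 genes of TRAIL receptor signalling named in the study, 3 had fold changes above 0 and 4 below. TNFRSF10A, the death receptor DR4, was highest at 1.02 and FADD, the adaptor of the death complex, lowest at -2.18. Of the 7, 1 had an unadjusted p under 0.05, and PyDESeq2 called FADD lower; over all 13078 genes 23.8% had such a p, and PyDESeq2 called 6.46% higher and 8.24% lower. Of 12 other receptors and ligands of the TNF superfamily 9 were tested, 8 with fold changes below 0 and a median of -0.97. TNFRSF11A (RANK) was highest at 0.48 and TNFRSF25 (DR3) lowest at -2.07, 2 of the 9 had an unadjusted p under 0.05 and PyDESeq2 called none.

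Of 25 genes that act with RIPK1 and TRADD in ubiquitin and NF-kappaB signalling, 23 were tested, 12 with fold changes above 0 and 11 below. SPATA2, which recruits the deubiquitinase CYLD, was highest at 2.95 ± 0.631 (SE, edgeR adjusted p = 0.0545) and SHARPIN, a subunit of the linear ubiquitin ligase, lowest at -2.36 ± 0.665 (edgeR adjusted p = 0.0888). At an unadjusted p under 0.05 there were 8 of the 23, where 23.8% of all genes had one. PyDESeq2 called CHUK, CYLD and SPATA2 higher and RELA and SHARPIN lower, where it called 6.46% of all genes higher and 8.24% lower. In a list of 12 other genes around the inhibitors of apoptosis, 8 were tested, 4 on each side of 0, and XAF1, an XIAP antagonist, was lowest at -1.61.

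The genes with the most similar profile over the 6 libraries were found for the most abundant gene per length of each role, by Pearson's r of log2 CPM among protein-coding genes with at least 200 counts in every library; all points share the libraries and their depth. FZD6 (r = 0.995) and NPC2 (r = 0.994) were most like TNFSF10, and 110 of 4404 genes had an r of at least 0.9. For BIRC2 these were EZH2 and BAG5 (both r = 0.998), and 449 of 4404 genes reached 0.9. RCSD1 (r = 0.980) and CLCN3 (r = 0.966) were most like TNFRSF10D, and ESRRA (r = 0.971) and ARHGEF40 (r = 0.970) most like TRADD, with 44 and 42 of 4405 genes at 0.9 or more.

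**Figure D5:**
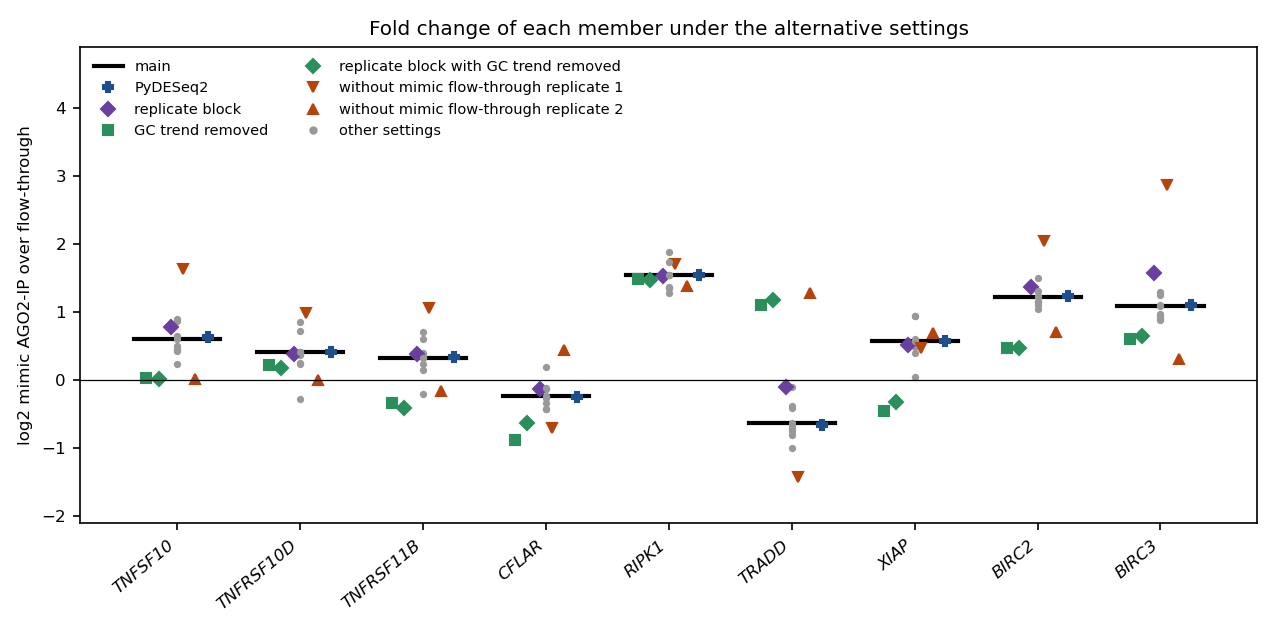
Log2 fold change of each gene, mimic AGO2-IP over flow-through, in the reported fit (black line) and under each alternative setting (symbols; grey points are the remaining settings). RIPK1 stays between 1.28 and 1.88, BIRC2 between 0.48 and 2.04 and BIRC3 between 0.30 and 2.87, while TRADD runs from -1.42 to 1.29.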

How the data were processed

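Per the study's methods and the labels, paired-end reads were checked by the authors with FastQC 0.11.9, trimmed by Cutadapt 3.5, mapped on GRCh38 by STAR 2.7.11b in 2-pass mode and tested with DESeq2 through PyDESeq2. Which Ensembl release was used is not given in the sources used here. The deposited values are STAR's raw counts of read pairs per gene (whole numbers, unstranded column used, since the strands held near-equal shares). Pairs on no gene, several genes or several places made up 92.3% and 95.0% of pairs in the control flow-through and control AGO2-IP, 35.1% and 47.2% for the mimic flow-through and 21.9% and 21.4% for the mimic AGO2-IP, and were left out. Genes with near-identical copies or overlapping neighbours lose counts this way. GENCODE 44 held 60463 of the 60708 identifiers and gave names, coordinates and transcripts. Groups follow the sample labels; the study's supplement lists the control libraries as control replicates with no fraction.

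The mimic fractions were compared with edgeR 4.0.16 (R 4.3.3; glmQLFit and glmQLFTest) after TMM scaling, over genes whose counts summed to 200 or more; a call needed a log2 fold change past 1 in either direction and a Benjamini-Hochberg adjusted p no higher than 0.05. Comparisons with a control library are log2 ratios of TMM-scaled CPM with a prior count of 2 and have no p-value. Replicate numbers pair the mimic fractions per the labels, and over genes the distances of libraries with the same number from the mean of their group correlated (Pearson's r 0.324). Labels call the mimic replicates biological. Alternatives were DESeq2 1.42.0 size factors, PyDESeq2 0.5.4 (the study's tool, in another version), library size alone, other count minimums, the stranded columns, a replicate block, all 6 libraries in one fit, a lowess trend on GC content (span 0.2) removed and each mimic library left out. The edgeR fit of the mimic fractions was also run on simulated counts, with an outcome that is not reported here. Each simulation had the same spread for all genes and both fractions and no GC trend, unlike these libraries. Named genes were the 10 members, and in each pathway list the genes called and those with the highest and lowest fold change; CHUK, CYLD and RELA were named after their values were seen, and some results of the last list are not reported here. The members, lists and rules were chosen with earlier results of these data known. Counts carry no molecular identifiers, so Poisson intervals cover counting error only.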

Additional observations from a re-analysis of the deposited data

Results flagged for a closer look

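BIRC2 and BIRC3 had opposite signs in mimic and control cells. In mimic cells the log2 fold change of AGO2-IP over flow-through was 1.23 for BIRC2 and 1.08 for BIRC3, with both AGO2-IP libraries above both flow-through libraries, while the control pair gave -0.20 and -0.43. With 1 control library per fraction this difference was not tested. With library size alone the control ratios were 0.69 and 0.46, and with the GC trend removed 0.22 and 0.23, so the opposite signs were lost under both. With TMM over all 6 libraries the BIRC2 ratio was 0.01, also above 0. By CPM over nuclear genes BIRC3 in mimic flow-through replicate 1 (80.6) was above mimic AGO2-IP replicate 1 (77.6), so there its fractions overlapped. Over all genes 953 of 8225 (11.6%) had groups that did not overlap in the mimic cells and an opposite sign in the control pair.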

How the results depend on the processing

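The number of genes called between the mimic fractions, 32 higher and 54 lower, was 13 and 33 with DESeq2 size factors, 9 and 35 with library size alone, 845 and 1077 with PyDESeq2, 144 and 86 with a minimum summed count of 10, 213 and 371 with at least 200 counts in each library, 1 and 17 in column 3, 2 and 12 in column 4, 601 and 664 with the replicate block, 434 and 309 with the GC trend removed, and 1835 and 1658 with the replicate block and the GC trend removed. Leaving out 1 mimic library gave from 2 to 2458 genes called higher and from 21 to 2416 called lower. The number of the 9 genes called, 0 as reported, was 1 with the replicate block and the GC trend removed, and from 0 to 4 when 1 mimic library was left out. Of 134 fold changes of single genes over 15 settings, 122 kept the sign of the reported value. The sign turned with the GC trend removed for TNFRSF11B (-0.34), TRADD (1.11) and XIAP (-0.46), with the replicate block and the GC trend removed for the same genes (-0.42, 1.17 and -0.32), and with a minimum summed count of 10 for CFLAR (0.20). It also turned for TNFRSF10D without mimic AGO2-IP replicate 1 (-0.28), for TNFRSF11B without mimic flow-through replicate 2 (-0.16) or mimic AGO2-IP replicate 2 (-0.21), and without mimic flow-through replicate 2 for CFLAR (0.45) and TRADD (1.29). The other end of the values with 1 library left out was 0.99, 1.06, -0.71 and -1.42 for these 4 genes, each without mimic flow-through replicate 1. The cause was not tested. In the ratios without a test the sign was kept in 47 of 54 values of the control pair, 75 of 80 of the AGO2-IP comparison and 73 of 79 of the flow-through comparison. Scaling by library size alone moved the median of all genes by 0.47 in the flow-through comparison and by -0.13 in the AGO2-IP comparison.

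With 2 libraries per fraction and a flow-through pair whose log2 difference had an SD of 1.44 over genes (0.84 for the AGO2-IP pair), standard errors of the 9 genes ran from 0.601 to 0.822. Depth limits TNFRSF10C and TNFRSF11B, and the control flow-through for TNFRSF10D, RIPK1 and TRADD.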
